A study of Mus musculus with 2 samples.

Results

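The EGR, KLF, NR4A and IER immediate-early genes examined here are Egr1, Egr2, Egr3, Klf2, Klf4, Klf6, Nr4a1, Ier2, Ier3 and Ier5. They were chosen by symbol, all 10 symbols were found once each, and they are 10 of the 55536 mouse genes in the deposited tables. Ribosomal-RNA-depleted total RNA of the nuclear fraction was sequenced from bone-marrow-derived macrophages, primary cells of C57BL/6J mice. All cells received Lipid A, the TLR4-binding part of bacterial lipopolysaccharide, at 100 ng/ml for 12 h, were washed and kept without it for 12 h, and met the same dose a second time for 120 min. Age and sex of the mice were not recorded. There were 2 biological replicates of this 1 condition, with 28450309 and 16940220 expected counts (estimated reads that need not be whole) on genes, and no untreated or once-treated cells were analysed here. The values therefore show how much of each transcript the nuclei held and how far the libraries differed, not what Lipid A changed. Both replicates carry the same donor label, so separate animals are not established, and the libraries' differences may be technical. The p-values below cover counting error only, with no spread between samples in them. Replicate 1 started from 1 µg of RNA and replicate 2 from 500 ng, so input amount and replicate cannot be told apart. The labels call the fraction nucleus in one place and nucleoplasmic in another.

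Immediate-early genes are those that a stimulus switches on without the need for new protein. In macrophages TLR4 activates the MAP kinases, whose targets include the ternary complex factors of the ELK family, their partner SRF, and CREB, and these occupy promoters that are already open. Many of the transcripts are short-lived. Most of the encoded proteins are transcription factors that shape the next wave of expression: EGR and KLF proteins bind DNA through C2H2 zinc fingers, and NR4A proteins are orphan nuclear receptors that act without a known natural ligand.

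Of the 10 macrophage markers listed, all reached TPM 1 (TPM corrects counts for transcript length and scales each library to the same total) in replicate 1 and in replicate 2, led by Lyz2 and Adgre1. Of 18 markers of 6 other cell types, 16 were below TPM 1 in both. The exceptions were Cd4 (13.66 ± 0.297 TPM) and the endothelial Kdr (10.13 ± 2.59 TPM), while Cd3e, Cd79a, Ncr1, Klrb1c, Ly6g and Elane had 0 counts in both. The part of other cells in the results was not tested, and in bulk RNA fewer cells of a type and less RNA per cell cannot be told apart. The summed TPM was 13.93 and 13.51 for T cell markers, 12.68 and 8.98 for endothelial markers, and at most 0.21 for B cell, NK cell, neutrophil and fibroblast markers in either library. Genes of the mitochondrial genome took 4.15% of the counts in replicate 1 and 10.3% in replicate 2. Short structural RNAs and mitochondrial transcripts, with all genes of effective length below 200 bases in either library, held 79.0% and 69.5% of the TPM. The TPM of any other gene depends on them. Rescaling or counting without short structural and mitochondrial RNAs leaves all of these out.

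The 10 genes spanned a wide range of nuclear levels, and Klf6 stood far above the rest. A gene is called detected here at TPM 1 or more in both libraries, which 8 of the 10 reached, beside 39.6% of the 22015 protein-coding genes of the nuclear genome. The exceptions were Klf4, below TPM 1 in replicate 2, and Nr4a1, below it in both. In TPM rescaled without short structural and mitochondrial RNAs, which raises every gene kept, all 10 passed. Klf4 then had 6.91 and 1.91 and Nr4a1 2.21 and 2.99. With the second tool 6 passed. The share of all genes passing at either setting was not computed. The median of the 10 was 8.57 TPM in replicate 1 and 6.33 in replicate 2, beside 0.18 and 0.29 over all protein-coding genes and 6.52 and 9.52 over the detected ones. Klf6 by itself held 59.0% and 66.7% of the summed TPM of the 10 genes. All 10 had whole-number counts with a deposited posterior SD of 0 in both libraries, meaning that the gene tables' tool divided no read between them and another gene. That was so for 68.5% of the genes tested below. With the second tool Klf4 had 269.772 and 101.619 estimated counts, which are not whole, beside 199 and 34 in the gene tables. No other annotated gene overlaps any of the 10.

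**Figure D1:**
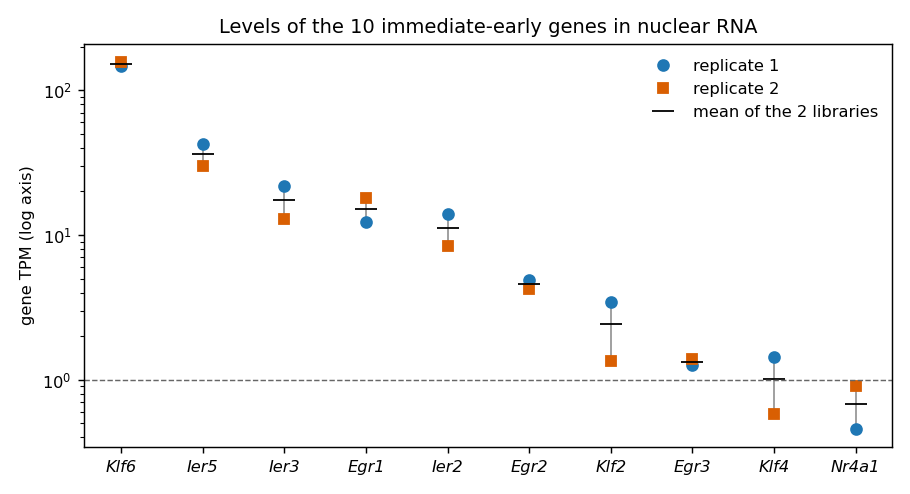
Gene TPM on a log axis for the 10 genes, with circles for replicate 1, squares for replicate 2, a black dash for their mean and a dashed line at TPM 1. Klf6 lies above 146 TPM in both libraries, Klf4 crosses the line at TPM 1, and Nr4a1 lies under it in both.

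Among the EGR factors, Egr1 was the most abundant. Egr1 (ENSMUSG00000038418.7, chromosome 18, 34859823 to 34864984, plus strand, mm10) encodes the founding member of the family. It had 12.26 TPM in replicate 1 and 17.93 in replicate 2 from 1768 and 1077 counts, and the mean was 15.09 ± 4.01 TPM (SD, n = 2). Its level exceeded that of 87.6% of protein-coding genes in replicate 1 and 88.0% in replicate 2. Rescaled without short structural and mitochondrial RNAs, Egr1 was nearly the same in both libraries, at 58.85 and 58.89 TPM. Egr2 (ENSMUSG00000037868.15, chromosome 10, 67535475 to 67542188, plus strand), a factor that is also induced in alternatively activated macrophages, had 4.87 and 4.25 TPM from 635 and 238 counts, or 4.56 ± 0.438 TPM. Egr3 (ENSMUSG00000033730.4, chromosome 14, 70077203 to 70082614, plus strand) had 1.26 and 1.40 TPM from 211 and 104 counts, or 1.33 ± 0.099 TPM. The libraries' values did not overlap between any of these 3 genes, so the order Egr1, Egr2, Egr3 held in each library.

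The KLF factors held both the highest level and one of the lowest. Klf6 (ENSMUSG00000000078.7, chromosome 13, 5861482 to 5870394, plus strand), a zinc finger factor known to promote inflammatory gene expression in macrophages, had 146.79 TPM in replicate 1 and 155.59 in replicate 2 from 26477 and 12386 counts. The mean was 151.2 ± 6.22 TPM, and its level exceeded that of 99.3% of protein-coding genes in replicate 1 and 99.2% in replicate 2. The closeness of these values belongs to the TPM scale: rescaled without short structural and mitochondrial RNAs, Klf6 had 704.7 TPM in replicate 1 and 511.0 in replicate 2. Klf2 (ENSMUSG00000055148.7, chromosome 8, 72319033 to 72321656, plus strand), which restrains the inflammatory activation of monocytes and macrophages, had 3.47 and 1.35 TPM from 276 and 46 counts, or 2.41 ± 1.5 TPM. Klf4 (ENSMUSG00000003032.8, chromosome 4, 55527143 to 55532466, minus strand), a pluripotency factor that also acts in monocyte differentiation and alternative activation, had 1.44 and 0.58 TPM from 199 and 34 counts, or 1.01 ± 0.608 TPM. For Klf2 and Klf4 alike, replicate 1 was more than 2-fold higher, by 2.57 and 2.48 times in TPM.

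Nr4a1 (ENSMUSG00000023034.7, chromosome 15, 101254269 to 101274795, plus strand), which encodes the orphan receptor NUR77, had the lowest mean of the 10, though Klf4 was lower in replicate 2. It had 0.46 TPM in replicate 1 and 0.91 in replicate 2 from 46 and 36 counts, or 0.685 ± 0.318 TPM. It lay above 54.7% and 56.0% of protein-coding genes, many of which were near 0.

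All 3 IER genes were well above the detection limit, and each was higher in replicate 1. Ier5 (ENSMUSG00000056708.5, chromosome 1, 155096361 to 155099636, minus strand), whose protein binds the phosphatase PP2A and the heat shock factor HSF1, had 42.50 and 29.99 TPM from 6375 and 1925 counts, or 36.24 ± 8.85 TPM. Ier3 (ENSMUSG00000003541.6, chromosome 17, 35821684 to 35822923, plus strand), a stress-induced regulator of cell survival, had 21.93 and 12.78 TPM from 968 and 245 counts, or 17.36 ± 6.47 TPM. Ier2 (ENSMUSG00000053560.4, chromosome 8, 84661331 to 84662852, minus strand), a nuclear protein of less well known function, had 13.95 and 8.40 TPM from 885 and 230 counts, or 11.18 ± 3.92 TPM. Ier2 and Ier5 are read from a single exon each, so no transcript of theirs can differ by splicing.

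By mean TPM the order was Klf6, Ier5, Ier3, Egr1, Ier2, Egr2, Klf2, Egr3, Klf4 and Nr4a1. Of the 9 pairs of neighbours, 4 had library values that did not overlap: Klf6 over Ier5 (3.45-fold in replicate 1 and 5.19-fold in replicate 2), Ier5 over Ier3 (1.94 and 2.35), Ier2 over Egr2 (2.86 and 1.98) and Egr2 over Klf2 (1.40 and 3.15). The other 5 pairs did not differ beyond their spread. Ier3, Egr1 and Ier2 formed one such run. Ier3 led it in replicate 1, and Egr1 led it in replicate 2. Klf2, Egr3, Klf4 and Nr4a1 formed the other, in which Klf2 was highest in replicate 1 and Egr3 in replicate 2. Not all pairs within this run overlapped: Nr4a1, at 0.46 and 0.91 TPM, lay below both values of Klf2 and of Egr3.

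Of 18 other genes of the 4 families, 6 were detected, a share near the 39.6% of protein-coding genes, and 11 were below TPM 1 in both, and their median was 0.265 TPM in replicate 1 and 0.545 in replicate 2. The highest were Klf3, a transcriptional repressor (53.72 ± 18.6 TPM), Klf13 (20.79 ± 6.48 TPM) and Klf7 (14.39 ± 3.53 TPM). Klf3 had 40.57 and 66.87 TPM, below Klf6 in each library. Below TPM 1 in both were Egr4, Klf1, Klf5, Klf9, Klf11, Klf12, Klf14, Klf15, Klf17, Nr4a2 and Ier5l, of which Egr4, Klf1, Klf14, Klf15 and Klf17 had 0 counts in both. The NR4A family was low as a whole. Nr4a2 had 0.3 and 0.68 TPM and Nr4a3, the 1 gene on neither side of the limit, 0.46 and 1.02, beside 0.46 and 0.91 for Nr4a1, so the values of all 3 receptors overlapped.

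**Figure D2:**
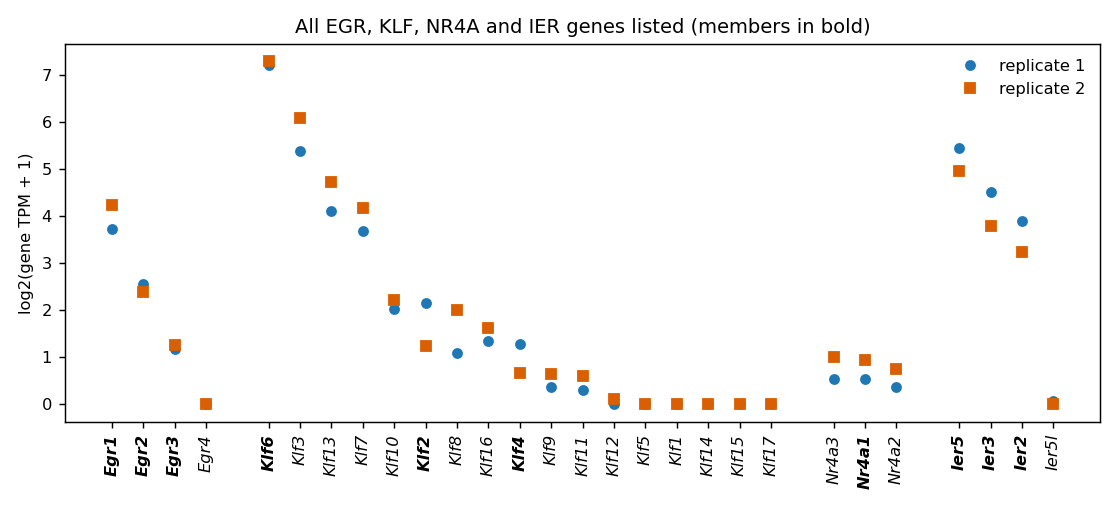
log2(gene TPM + 1) of the 28 listed EGR, KLF, NR4A and IER genes, by family and in falling order, with circles for replicate 1, squares for replicate 2 and the 10 genes described here in bold. Each of the EGR, KLF and IER families is led by 1 of the 10 genes, and the 3 NR4A genes lie close together near the bottom.

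Transcripts of the kinases and factors upstream of immediate-early transcription were present throughout. All 23 listed genes were detected, and their median was 12.72 TPM in replicate 1 and 17.28 in replicate 2. The highest were Mapkapk2, a kinase downstream of p38 (77.82 ± 2.09 TPM), the transcription factor Mef2a (53.71 ± 28.9 TPM) and Map3k8, the kinase TPL2 that links TLR4 to ERK (33.08 ± 14.2 TPM). Srf had 3.9 and 4.48 TPM and Creb1 13.7 and 37.41, both named after their values were seen. All 5 listed partners were detected as well, led by Nab1 (12.79 ± 3.17 TPM), Hsf1 (10.09 ± 4.61 TPM) and Nab2 (7.20 ± 0.255 TPM). NAB1 and NAB2 are corepressors that bind EGR proteins.

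Of the 10 genes, Klf2, Ier2, Ier3 and Ier5 have 1 annotated transcript each, and 6 have several. In the tables that hold the gene values, 1 transcript took 90% or more of the TPM in both libraries for 3 of these 6, Egr1, Klf4 and Klf6, beside 8.99% of the 8138 detected protein-coding genes with more than 1 transcript. The second deposited transcript table, made by another tool, gave that count as 1, with Egr1 alone. Egr1-202 took 91.6% and 97.0% of Egr1, and 90.1% and 97.8% with the second tool. Egr2-201 took 71.3% and 72.8% of Egr2, and Egr2-203, which starts at another first exon, took 28.7% and 27.2%. With the second tool these shares were 61.1% and 83.5% for Egr2-201 and 21% and 12.6% for Egr2-203. That tool also gave Egr2-204 14.5% in replicate 1 from 7.92 counts. Egr2-203 starts within the span of Egr2-201, and reads from unspliced Egr2 RNA in the nucleus were not told apart from it.

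**Figure D3:**
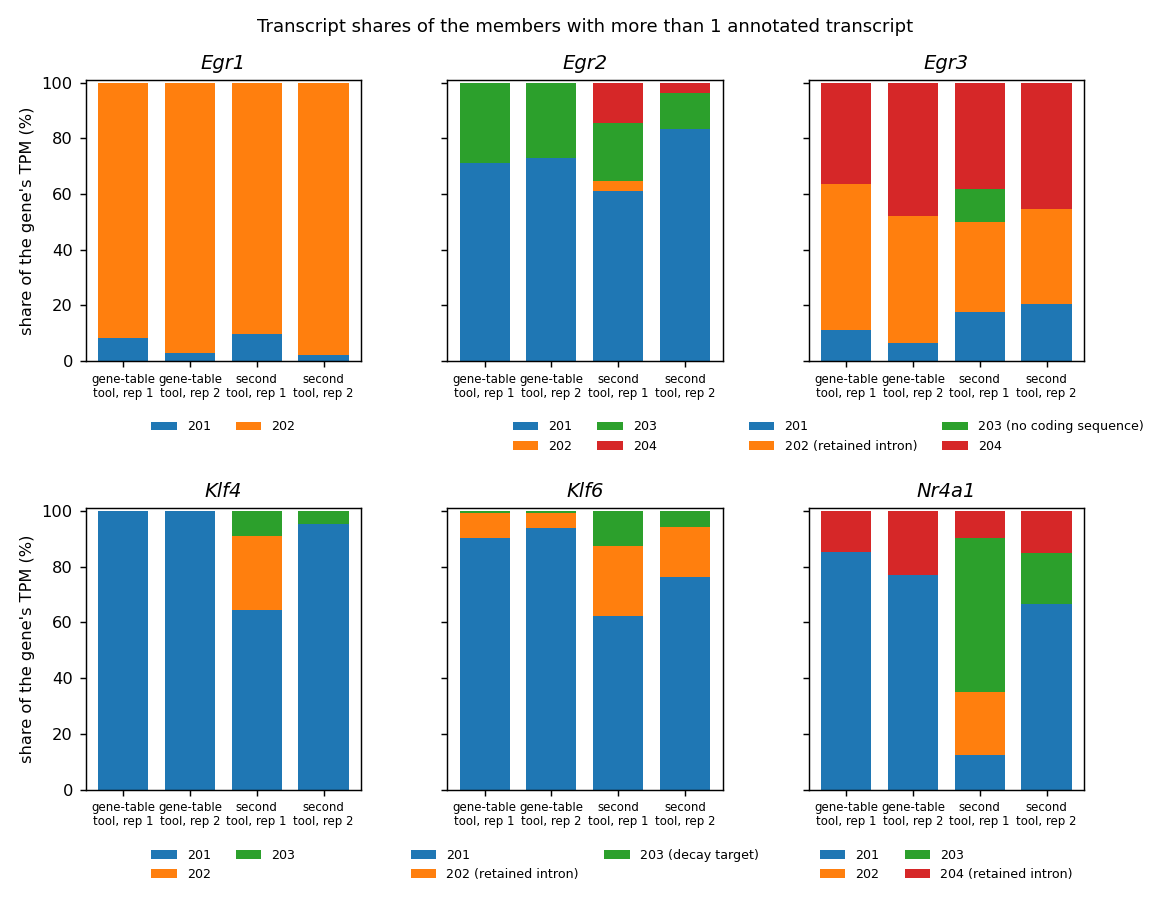
Share of each gene's TPM on each transcript, in percent, for the 6 genes with more than 1 annotated transcript, with bars for the gene-table tool and the second tool in replicates 1 and 2 and transcripts named by their number. Egr1-202 leads in all 4 bars, Klf6-202 and Klf6-203 are larger with the second tool, and the Nr4a1 bars differ most between tools.

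Klf6, with the most reads of the 10, was the gene in which the tools could be compared most precisely. Klf6-201 is the coding transcript of 4 exons and took 90.2% of the gene's TPM in replicate 1 and 93.7% in replicate 2. Klf6-202, annotated as a retained intron, had 8.9% and 5.6% from 360.94 and 106.79 counts. Klf6-203, annotated as a target of nonsense-mediated decay, had 1.0% and 0.7% from 60.58 and 20.43 counts. The second tool gave Klf6-202 25.2% and 18.2% from 1543.95 and 704.157 counts, and Klf6-203 12.5% and 5.6% from 1215.54 and 329.607 counts. Both tools thus put more on these transcripts in replicate 1 than in replicate 2. The second tool gave each of them a larger share in both libraries, and the tools' shares did not overlap for either transcript. Which tool was nearer the truth was not tested.

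The sequences below are shown because spliced Klf6-201 lacks them. Unspliced Klf6 RNA in the nucleus holds them too, and reads from it were not told apart here. Capitals mark the bases that Klf6-201 splices out, and lower case marks the first 20 bases of the exon that follows. Both are given 5′ to 3′ on the plus strand of mm10 from GENCODE release M21. Klf6-202 keeps 90 bases of intron before the second exon (chr13:5864678-5864767), which open with a run of T. Klf6-203 carries a 68-base exon that Klf6-201 lacks (chr13:5863558-5863625), and its annotated reading frame ends after 54 bases of it. Klf6-202 also keeps 8 bases after the third exon of Klf6-201, which are not printed.
Klf6-202: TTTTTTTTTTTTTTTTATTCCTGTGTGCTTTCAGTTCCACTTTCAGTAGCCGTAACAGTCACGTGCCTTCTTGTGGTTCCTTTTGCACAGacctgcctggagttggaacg
Klf6-203: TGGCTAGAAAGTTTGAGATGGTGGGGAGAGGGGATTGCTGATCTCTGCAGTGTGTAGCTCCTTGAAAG

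Of the 10 genes, Egr3 had the largest share of its TPM on a retained-intron transcript, in each library with each tool. This transcript, Egr3-202, is annotated as a single exon, and reads from unspliced Egr3 RNA in the nucleus were not told apart from it. Egr3-202 took 52.4% and 45.7% of its TPM, from 118.59 and 49.26 counts, and the coding Egr3-204 took 36.5% and 47.9%. The second tool gave Egr3-202 32.4% and 34.3% and Egr3-204 38.2% and 45.3%. Egr3-201, with a first exon that reaches further upstream, had 11.1% and 6.4%, and 17.6% and 20.4% with the second tool, which also placed 11.7% on Egr3-203 in replicate 1 from 2.29 counts. The leading transcript of Egr3 therefore changed with the tool in replicate 1 and with the replicate in the gene-table tool.

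In Nr4a1 and Klf4 the shares rested on few reads. The gene tables' tool put 85.1% and 76.9% of Nr4a1 on the coding Nr4a1-201 and the rest on the retained-intron transcript Nr4a1-204, from 2.18 and 3 counts. The second tool gave Nr4a1-201 12.5% in replicate 1 and 66.6% in replicate 2, gave Nr4a1-202, a coding transcript with another start, 22.6% from 36.05 counts in replicate 1 and 0 in replicate 2, and gave Nr4a1-203, which is 344 bases long, 55.3% and 18.2% from 4.45 counts and 1 count. For Klf4 the first tool put 100.0% on Klf4-201 in both libraries, and the second tool 64.6% and 95.2%, with 26.5% of replicate 1 on the 522-base Klf4-202 from 10.04 counts.

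Promoter windows of RefSeq (build GRCm38.p6, 250 bases before to 50 after each start) were matched for 7 of the 10 genes: Egr2, with 5 starts, and Klf2, Klf4, Klf6, Nr4a1, Ier3 and Ier5. Motifs were searched by their letters on both strands: the CArG box that SRF binds, the cAMP response element TGACGTCA and its core TGACG, which lies within it, the EGR sites GCGTGGGCG and GCGGGGGCG, the NF-kB site, and TATAAA. Egr2 held a CArG box in 4 of its 5 windows, beside 1.63% of all 32851 windows, but 3 of these windows overlap and hold the same one. TGACG was found in windows of Egr2, Klf2, Klf4 and Nr4a1, beside 20.8% of all windows, and Nr4a1 held 4 copies. GCGGGGGCG was found for Klf2, Klf4 and Nr4a1, beside 2.91%. The NF-kB letters were found for Ier3, Nr4a1 and the first Egr2 window, beside 8.46%. TGACGTCA, GCGTGGGCG and TATAAA, held by 1.79%, 0.612% and 13.6% of all windows, were found in none of these windows. Klf6 and Ier5, which had the 2 highest levels of the 10 genes, held none of the letters searched. A match is a run of letters and not a site shown to be bound. Egr1, Egr3 and Ier2 were not searched, so whether they hold these letters is not known here.

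Windows are printed below for the gene with the highest mean, the gene with the lowest mean and, among the 7 genes searched, the one with CArG boxes. They run up to the first annotated exon, with matches in capitals. A match in Nr4a1 to the NF-kB site crosses the start and is not in capitals. That of Egr2 is the window before the start of Egr2-201 (chr10:67537619-67537868, plus strand), where the CArG box begins at position -72 from the start and TGACG lies on either side of it. That of Nr4a1 precedes Nr4a1-201 (chr15:101266596-101266845, plus strand), and the one of Klf6 precedes Klf6-201 (chr13:5861239-5861481, plus strand).
Egr2: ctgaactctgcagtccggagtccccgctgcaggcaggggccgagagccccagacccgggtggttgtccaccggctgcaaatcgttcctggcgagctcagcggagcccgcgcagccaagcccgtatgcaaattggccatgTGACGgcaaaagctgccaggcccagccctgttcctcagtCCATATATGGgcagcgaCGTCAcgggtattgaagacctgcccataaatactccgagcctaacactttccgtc
Nr4a1: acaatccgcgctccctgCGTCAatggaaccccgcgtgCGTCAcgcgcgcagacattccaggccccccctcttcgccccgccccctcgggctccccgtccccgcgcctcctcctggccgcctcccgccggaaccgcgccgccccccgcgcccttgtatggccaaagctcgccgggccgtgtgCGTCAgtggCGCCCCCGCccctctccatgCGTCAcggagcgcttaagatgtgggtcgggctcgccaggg
Klf6: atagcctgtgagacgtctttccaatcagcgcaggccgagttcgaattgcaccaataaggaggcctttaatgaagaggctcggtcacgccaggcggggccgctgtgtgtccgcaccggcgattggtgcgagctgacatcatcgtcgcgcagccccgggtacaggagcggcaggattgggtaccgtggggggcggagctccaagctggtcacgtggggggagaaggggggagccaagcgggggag

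Most of the 10 genes were lower in replicate 2 than in replicate 1 when set against the bulk of genes. On counts scaled by TMM (trimmed mean of M-values, which aligns the bulk of genes), 9 of the 10 were lower in replicate 2 beyond counting error, none was higher, and Nr4a1 did not pass. Each gene was compared with an exact two-sided binomial test with Benjamini-Hochberg adjustment over the 14698 genes whose counts averaged at least 10, of which 30.2% were lower and 29.7% higher. The test compares these 2 libraries and not conditions. Taken from the median tested gene, the log2 ratio of replicate 2 to replicate 1 had a median of -1.0 over the 10, and the quartiles of all tested genes were -0.43 and 0.47. The common biological coefficient of variation over all tested genes was 0.335 by edgeR. All 10 macrophage markers were also lower in replicate 2 on this test, with a median of -0.74, and their part in the result was not tested. The 23 upstream genes had 9 lower, 9 higher and a median of 0.01, and of 10 tested among the other family genes 2 were lower (Klf10 at -0.36 and Klf13 at -0.41), 2 were higher (Klf8 at 0.79 and Nr4a3 at 0.68) and the median was 0.16, Klf8 and Klf10 being named after their values were seen.

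In the gene tables Klf2 and Klf4 differed most. Klf2 fell by 2.00 on the log2 scale relative to the median gene, and its own ratio had a 95% interval from -2.48 to -1.55 (adjusted p = 7.19e-23 by the exact binomial test). Klf4 fell by 1.96, with an interval from -2.54 to -1.44 (adjusted p = 2.05e-16 by the same exact test). Only 1.2% of the tested genes had a lower ratio than either. The IER genes followed, with relative ratios of -1.41 for Ier3, -1.37 for Ier2 and -1.15 for Ier5, and 3.0%, 3.3% and 5.0% of the tested genes below them. Egr2 stood at -0.84, Klf6 at -0.52 and Egr3 at -0.44. Nr4a1 had a relative ratio of 0.23, with an interval for its own ratio from -0.44 to 0.89. No difference in either direction was detected at its 46 and 36 counts (adjusted p = 0.583 by the exact test). With the second tool its log2 ratio was -0.39. By that tool Klf2 stood at -2.345 relative to the median gene, Ier3 at -1.752, Klf4 at -1.63 and Ier2 at -1.61. Ier3 there lay below Klf4.

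The direction of some genes depended on the scale. On TMM-scaled counts Egr1 was lower in replicate 2, with a log2 ratio of -0.13 (95% interval -0.24 to -0.02, adjusted p = 0.0325 by the exact binomial test), while its TPM was higher there. With library size in place of TMM its log2 ratio was 0.03, and with library size counted without short structural and mitochondrial RNAs it was 0.06. Under each of these 2 scalings 7 of the 10 genes were lower and none higher, Egr3 and Egr1 no longer passing. Over all tested genes 22.1% were then lower and 39.2% higher with library size, and 21.1% and 40.9% without the short structural and mitochondrial RNAs. By deposited TPM 6 of the 10 were lower in replicate 2 and 4, Egr1, Egr3, Klf6 and Nr4a1, were higher, on a scale on which the median tested gene had a log2 ratio of 0.43, computed as TPM + 1.

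**Figure D4:**
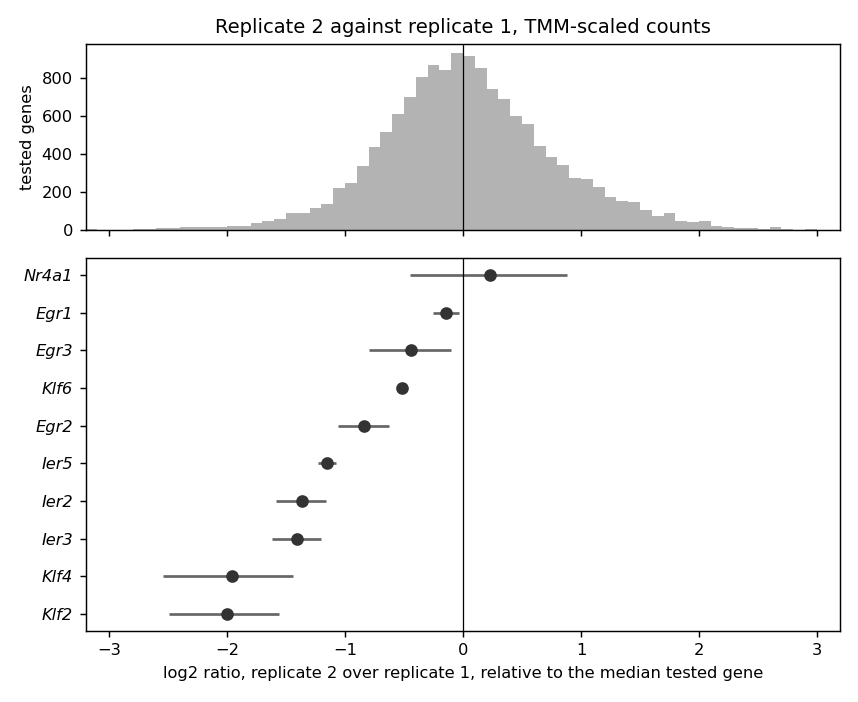
Top, number of tested genes in each 0.1-wide bin of the log2 ratio of TMM-scaled counts, replicate 2 over replicate 1, relative to the median tested gene; bottom, the same ratio of the 10 genes with 95% intervals that cover counting error only. Klf2 and Klf4 lie near -2, and the interval of Nr4a1 crosses 0.

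The ratio between the libraries moved with GC content over all tested genes, from a median of 0.63 in the decile of lowest GC to -0.50 in the highest. The main transcripts of 9 of the 10 genes lay in the upper 5 deciles, from 51.2% for Egr3 to 61.6% for Klf2, and that of Klf6 had 42.4%. Measured from the median of its own GC decile, Klf2 stood at -1.50, Klf4 at -1.70, Ier3 at -1.15, Ier5 at -0.99, Klf6 at -0.89, Ier2 at -0.87, Egr2 at -0.67 and Egr3 at -0.28, while Egr1 stood at 0.11 and Nr4a1 at 0.58. So 8 of the 10 lay below the median of their own GC decile, a value that divides the tested genes of a decile evenly, and Egr1 did not. The GC content is that of the main transcript only, which for Egr3 is the retained-intron Egr3-202. Klf6 is the gene for which the decile's median went the other way, at 0.37. The parts of GC content and of RNA input in these differences were not tested.

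**Figure D5:**
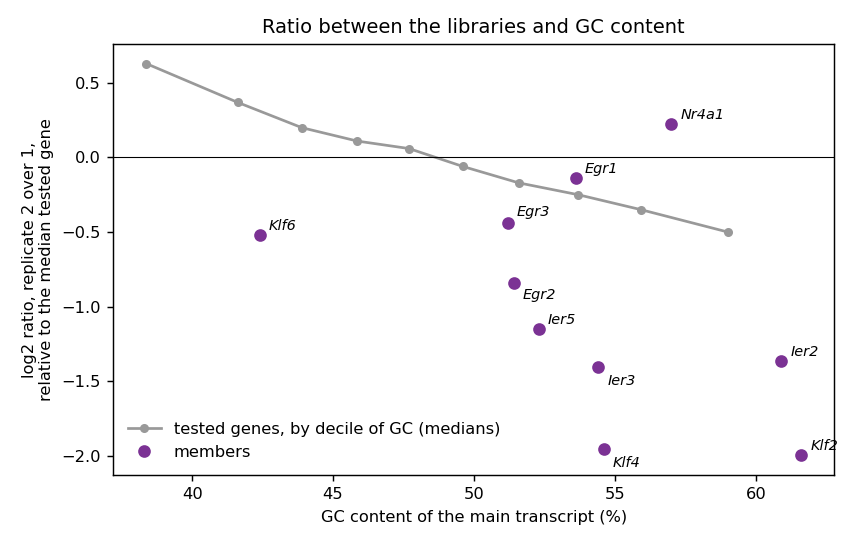
log2 ratio of TMM-scaled counts, replicate 2 over replicate 1, relative to the median tested gene, against the GC content of the main transcript in percent; grey points joined by a line are medians over deciles of the tested genes and purple points are the 10 genes. Egr1 and Nr4a1 lie above the median of their own decile and the other 8 genes below theirs, Ier2 and Klf2 standing to the right of the last grey point.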

How the data were processed

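Nuclear RNA of 2 replicates in 1 group was analysed. The authors made expected counts and TPM for genes and transcripts from transcriptome alignments on mm10 with GENCODE M21, per the file headers, whose column names are those of RSEM. Their deposited transcript shares, in percent, were not printed: shares were computed here from TPM. The second deposited transcript table holds estimated counts and TPM with kallisto's column names, and its gene values were summed here. The deposited tables' bounds of credibility intervals, a further signal column, were not printed. Tools, versions, strand setting: not given in the sources used here. Values cover annotated transcripts only, so intron reads outside annotated transcripts are not in them.

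Table entries without a mouse gene ID (1.79% of counts in replicate 1 and 0.318% in replicate 2) stayed out. Expected counts were rounded, scaled by TMM (edgeR 4.0.16, R 4.3.3) and tested gene by gene between libraries (exact binomial test, two-sided, scipy 1.17.1, Benjamini-Hochberg adjustment, threshold 0.05) where counts averaged at least 10; ratios used a prior count of 0.5. The test was tested on simulated data that held counting error but no other spread between libraries. edgeR's quasi-likelihood test needs 2 groups and was not used. DESeq2 1.42.0 gave alternative size factors. The 95% intervals are exact (Clopper-Pearson) and cover counting error only. PCR copies were not marked, and any among the reads were counted as separate reads. Motif shares are over all RefSeq promoter windows. Levels were compared between genes in TPM only. Every one of the 10 genes is named; of other lists, the 3 highest and those below TPM 1 in both libraries. Transcripts are named from a share of 10%. The members and lists were chosen with earlier results of these data known. With 2 libraries of 1 condition, genes of like pattern were not sought. One transcript sequence is not reported here.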

Additional observations from a re-analysis of the deposited data

How the results depend on the processing

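The median TPM of the 10 genes was 7.45 and lay at 6.33 and 8.57 when either replicate was left out; it was 3.97 with the second tool and 30.95 in TPM rescaled without short structural and mitochondrial RNAs. The count of detected genes was 8, from 8 to 9 with a replicate left out, 6 with the second tool and 10 in rescaled TPM. It was 9 at a limit of TPM 0.5 and 5 at a limit of TPM 5 in place of 1. The share of all genes passing was not computed for these alternatives. The count of genes with 1 transcript at 90% or more fell from 3 to 1 with the second tool, and the cause was not tested. The ratio of Egr1 turned to 0.03 with library size and 0.06 with library size without short structural and mitochondrial RNAs. The ratio of Nr4a1, which passed no test, went from 0.23 to -0.39 with the second tool. The biological coefficient of variation was 0.291 over genes whose counts averaged at least 100. The median ratio of the 10 ran from -1.34 with the second tool to -0.88 relative to genes of like GC content, an alternative chosen after seeing the data. The depth of replicate 2 limits Klf2, Klf4 and Nr4a1 most, with 46, 34 and 36 counts. No paired analysis was possible because there is 1 group.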
